A study of Arabidopsis thaliana with 24 samples.

Results

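The late switch-on probe sets read RNAs that were scarce in young siliques and young seeds of Arabidopsis thaliana and abundant in the oldest seeds sampled. A probe set, a group of short array probes for 1 transcript, was a member where its mean signal over 3 arrays was at most 100 in siliques stages 3, 4 and 5 and in seeds stage 6, and at least 800 in both seeds stages 9 and 10. Of 22746 probe sets that are not array controls, 66 met these thresholds. Among these, 7 belong to late embryogenesis abundant genes and 5 to BGLU19, LCR67, AT3G21380, AT1G14930 and AT1G14940, and all 12 were left out by the rule. The remaining 54 are the members. The annotation gives exactly 1 gene for 27 of them, several genes for 1, and no gene for 26, which cannot be named or checked for a late embryogenesis abundant gene. The members were thus chosen by their mean signals in 6 groups, and the levels in those groups are given as a description, with no test. Seeds stages 7 and 8 had no part in the choice.

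The series used the accession Col-0, with no mutant or treatment named in the labels, and 24 Affymetrix ATH1 arrays in 8 groups of 3. Siliques stages 3, 4 and 5 are whole fruits with the seeds inside, and seeds stages 6, 7, 8, 9 and 10 are seeds taken out of the fruit. Each sample is total RNA of a whole organ on 1 array, so fewer cells of a type and less RNA per cell cannot be told apart. The labels do not tell whether the 3 samples of a group are from different plants. The p-values below therefore reflect only how far these samples scatter, and part of that scatter may be technical. The signals are the authors' MAS5 values on a linear scale, and 3 arrays a group limit how precisely a mean is known. Growth conditions are labelled for siliques stage 3 alone, on soil in long days. The labels number the stages and give no water content. In the scheme published with this atlas the stages follow the form of the embryo, and stage 10 holds embryos with green cotyledons. The members are therefore described by stage and not as genes of dry seeds.

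A seed first forms the embryo, then fills with storage protein and oil, and then loses water and becomes quiescent. Late in this course abscisic acid and the transcription factors of seed maturation turn on genes whose products protect membranes, proteins and chromatin in the dry state. Late embryogenesis abundant proteins are the best known of these products. The members described here were chosen by their signal course, and only late embryogenesis abundant genes known from the annotation could be left out. Those with a name include enzymes, lipid binding proteins, regulators and proteins with no known function. Their regulation and any part in protection were not tested.

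Of the signal summed over an array, the 54 members together made up 0.0236% ± 0.000766 (SD, n = 3) in siliques stage 3, against 0.0685% ± 0.002 in seeds stage 6. This share was 0.383% ± 0.00303 at stage 7, 2.99% ± 0.0576 at stage 8, 3.69% ± 0.0952 at stage 9 and 4.16% ± 0.0526 at stage 10. The median signal of the members was 6.59, 7.44 and 9.68 in siliques stages 3, 4 and 5, 35.8 in seeds stage 6, 146 at stage 7, 1400 at stage 8, 1395 at stage 9 and 1726 at stage 10. The low values lie near the floor of the array, where the deposited data hold no detection calls. Most of the climb thus lay between stages 6 and 8.

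**Figure D1:**
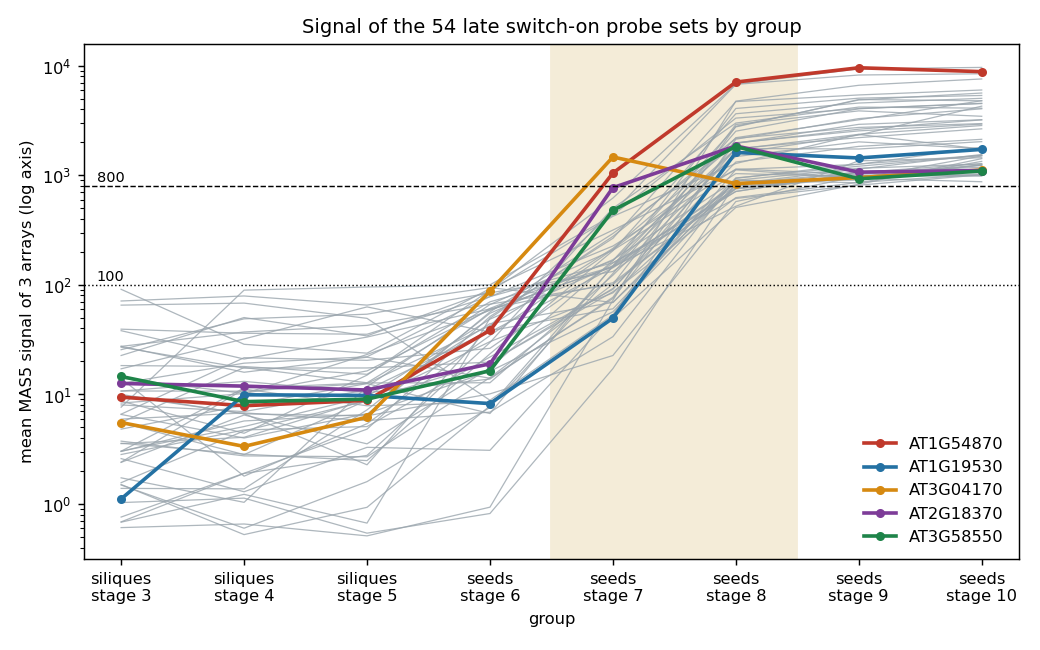
Mean MAS5 signal (3 arrays, log axis) of each of the 54 members in the 8 groups, with the thresholds of 100 and 800 as lines and the 2 stages that the rule did not use shaded. Most lines cross from under 100 to far above it between stages 6 and 8, and AT3G04170 stands highest at stage 7, at 1467.

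Seeds stage 8 were compared with stage 7 to ask whether the members came up in this step. A course from at most 100 at stage 6 to at least 800 at stage 9 has to rise somewhere between them, which makes a rise in this step likely. The comparison is thus no independent evidence that the genes rise. It does not place the rise in this step alone, since the step from stage 6 to 7, which was not tested, had a median of 1.94. Between these stages 53 of 54 members rose and 1 was not called, where 8.06% of the 16967 probe sets tested rose and 11.2% fell. All 54 passed the filter on low signals, which their high late levels ensured. The test was limma over all groups, and a probe set was called at a Benjamini-Hochberg adjusted p under 0.05 and a change of at least 2-fold. The median difference of the members was 3.33 on the log2 scale, against -0.02 over all tested probe sets, with a range from -0.81 to 5.91. All 3 arrays of stage 8 lay above those of stage 7 for 53 members and below for AT3G04170, against 29.1% above and 33.6% below over all tested probe sets. By limma 0 members fell, and 1 was lower at an unadjusted p under 0.05. Fitted on the 6 arrays of stages 7 and 8 alone, the test again called 53, though the filter and the offset still came from all 24 arrays. With arrays centred on 10 reference genes the median of all tested probe sets moved from -0.02 to 0.11, and 1773 rose and 1483 fell in place of 1367 and 1908. The members' count was 53 there too, with a median of 3.49.

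Other readings moved in the same step. The control for 25S ribosomal RNA was above 1000 on stage 7 array C and stage 8 arrays A and C, among 6 arrays of the series. Without these 6, stage 8 is array B alone against 2 arrays of stage 7. The fit then takes its spread from the other groups and assumes that array B varies as they do, so its count of 53 and median of 3.36 are a weak check. The 3'/5' signal ratio of a GAPDH control, a sign of RNA quality, was 2.16 ± 0.16 (SD, n = 3) at stage 7 and 4.50 ± 0.365 at stage 8, while a second GAPDH control gave 1.42 ± 0.11 and 1.58 ± 0.212. The signals of the first control fell in this step, from 1150 ± 7.82 to 446 ± 27.3 at the 3' end and from 534 ± 37.2 to 99.7 ± 12.1 at the 5' end. Those of the second fell too, from 2088.5 ± 68.3 to 406 ± 36.6 at the 3' end. The ratio was 1.64 ± 0.13 and 2.23 ± 0.284 for ubiquitin and 2.63 ± 0.243 and 2.80 ± 0.298 for actin. Another ubiquitin control gave 2.09 ± 0.205 and 3.02 ± 0.345. The part of RNA quality in the result was not tested. The summed signal of 7 of 7 listed photosynthesis genes was 6499 to 6659 at stage 7 and 2565 to 2607 at stage 8, and that of 5 of 11 listed seed coat genes 1930.3 to 2053 and 833 to 869. The silique wall markers ADPG1 and ALC, 2 of 6 listed, summed to 37.9 to 41.9 and 42.6 to 58. The endosperm markers MPC, AT4G36590 and AGL62, 3 of 7 listed, summed to 19.1 to 25.4 and 38 to 47.3, so that all 5 genes of these lists read under 100. The part of other cell types in the result was not tested.

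**Figure D2:**
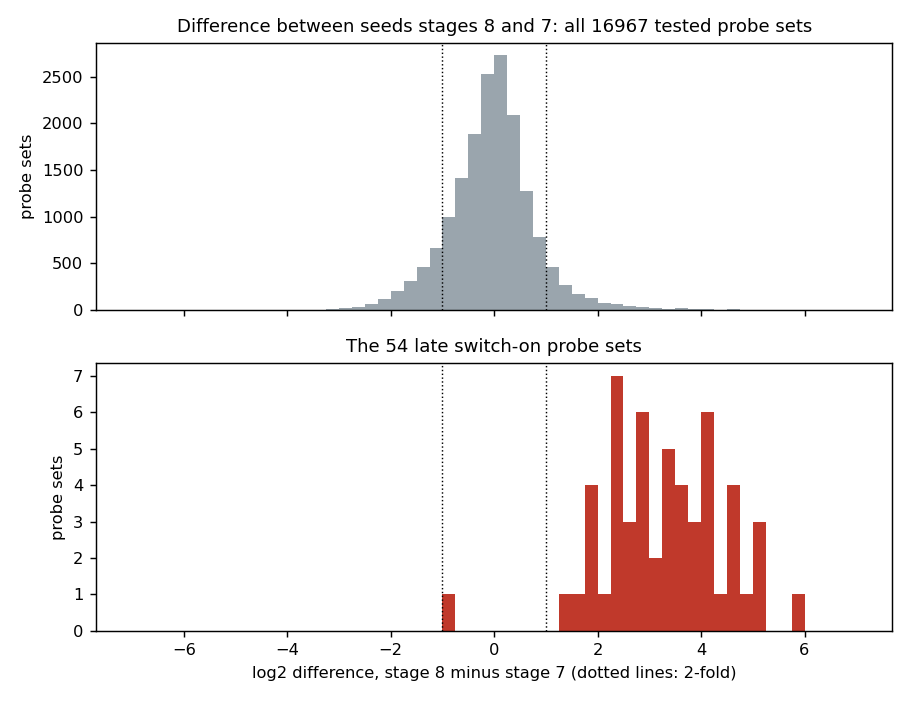
Number of probe sets by log2 difference between seeds stages 8 and 7, for all 16967 tested probe sets (top) and the 54 members (bottom), with 2-fold changes as dotted lines. The members centre on 3.33 and 1 lies below 0, while the tested probe sets centre on -0.02.

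Enzymes of the short-chain dehydrogenase family are described first. Probe sets differ in how strongly they bind, so signals are compared between stages and not as amounts of RNA between genes. AT1G54870 and AT3G05260 are relatives of glucose and ribitol dehydrogenases, and such proteins are known from mature embryos of cereals. AT1G54870 read 35.6, 37.7 and 41.9 at stage 6, 1025, 1034 and 1083 at stage 7, 8160.4, 6560.3 and 6509 at stage 8, 8873, 10834 and 8965 at stage 9 and 7960.04, 9102 and 9369 at stage 10. The arrays of stages 6, 7 and 8 did not overlap, and those of stages 9 and 10 did. It rose between stages 7 and 8 by 2.74 ± 0.11 (SE) on the log2 scale with adjusted p = 1.3e-16 by limma. Already at stage 7 its mean was 1047, above the 800 that the rule asks of stages 9 and 10.

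AT3G05260 read 40.8, 41.2 and 45.4 at stage 6, 476, 415 and 475 at stage 7, 7539.8, 6129 and 6566 at stage 8, 7902, 9025 and 7706 at stage 9 and 8109, 8141 and 9029 at stage 10. It stood lower than AT1G54870 relative to its late level at stage 7, with 5.47% against 11.4% of the mean of stages 9 and 10. The increase between stages 7 and 8 was 3.87 ± 0.12 (adjusted p = 5.7e-19 by limma). In siliques stages 4 and 5 AT1G54870 read 5.82 to 10.8 and AT3G05260 8.31 to 15.5.

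AT3G26770, another short-chain dehydrogenase, had one of the 4 smallest changes of that step among the named genes. Its signals were 77.7, 85.9 and 70.9 at stage 6, 163, 159.9 and 155 at stage 7, 558, 669.7 and 613 at stage 8, 812, 791 and 832 at stage 9 and 989, 1019.5 and 1021 at stage 10. No 2 of these stages overlapped. It rose by 1.90 ± 0.11 between stages 7 and 8 (adjusted p = 1.5e-13 by limma).

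AT1G19540 codes for a protein of the NmrA-like family, related to isoflavone reductases, and had one of the 4 largest changes among the named genes. It read 12.6, 15.4 and 14.2 at stage 6, 74.8, 75.7 and 74.6 at stage 7, 1858, 2145 and 1933 at stage 8, 2595, 2409 and 2614 at stage 9 and 3020.3, 3025 and 2729 at stage 10. Each stage lay above the one before, with an increase of 4.59 ± 0.11 between stages 7 and 8 (adjusted p = 5.1e-21 by limma). Its neighbour AT1G19530, with 0 other protein coding genes between them in the RefSeq table (assembly TAIR10.1), had the largest change of the named members. AT1G19530 is known as one of the genes that respond to low oxygen in many tissues, and the function of its protein is not known.

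AT1G19530 read 7, 6.96 and 10.8 at stage 6, 50, 50.7 and 48.4 at stage 7, 1706, 1597 and 1535 at stage 8, 1455, 1482 and 1375 at stage 9 and 1626, 1712 and 1824 at stage 10. It was at 3.15% of its late level at stage 7 and at 102% at stage 8, with an increase between them of 4.84 ± 0.11 (adjusted p = 3.1e-21 by limma). The stage 9 arrays lay below those of both stages 8 and 10. This was the only pair of member genes that are direct neighbours or have up to 4 protein coding genes between them.

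**Figure D3:**
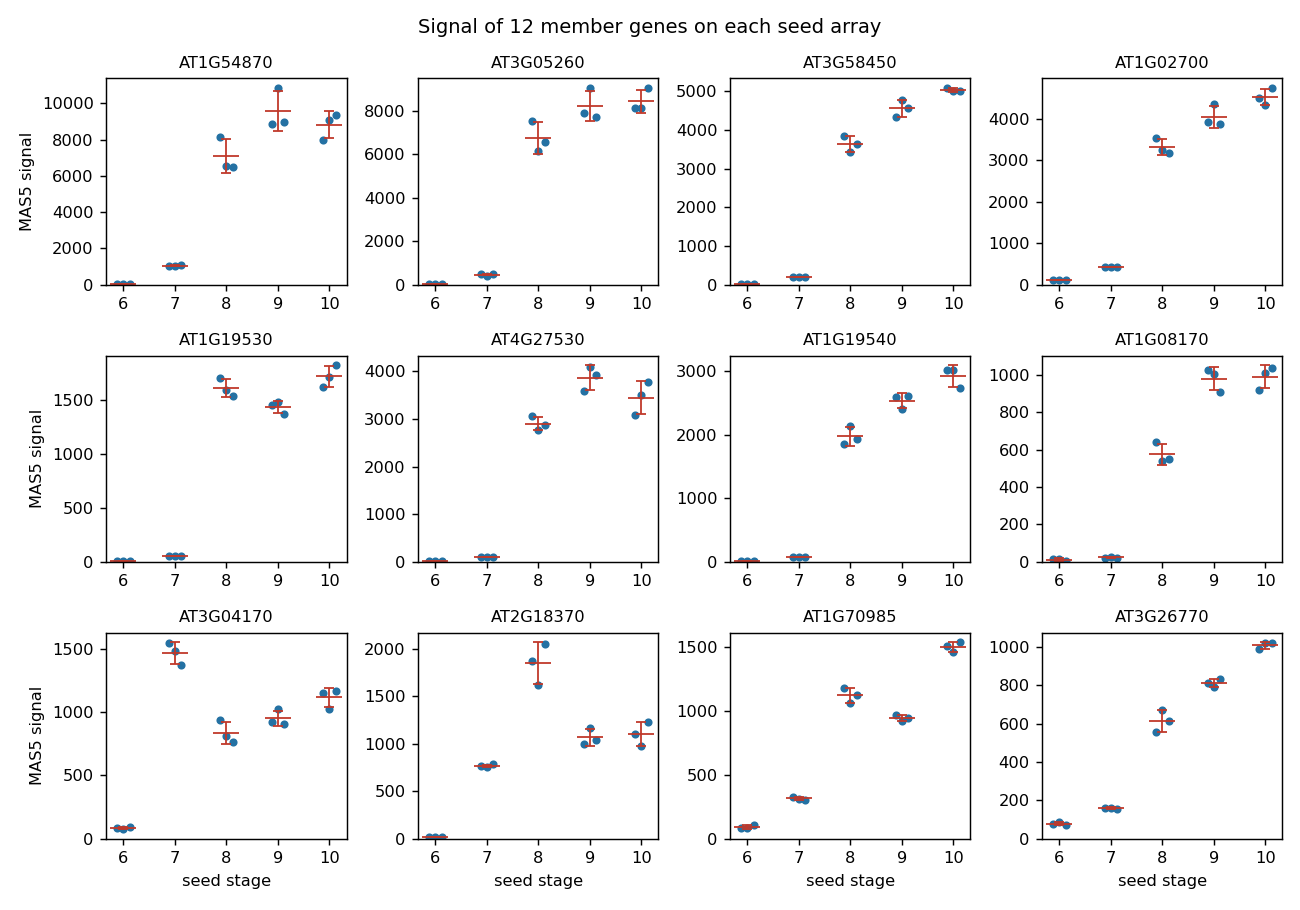
MAS5 signal (linear axis from 0) of 12 member genes on each array of seeds stages 6 to 10, with the mean and SD of 3 arrays as bars. The top row holds the 4 highest signals at stage 10 among the named members, the middle row the 4 largest and the bottom row the 4 smallest differences between stages 8 and 7.

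Among the lipid binding proteins, AT2G18370 and AT3G58550 belong to the lipid transfer protein superfamily, small cysteine-rich proteins that carry lipids, often to the cell surface. Both stood highest at stage 8, and no other members did. AT2G18370 read 16.4, 20.8 and 20 at stage 6, 767, 760.5 and 782 at stage 7, 1875, 1620.1 and 2055 at stage 8, 995, 1169.5 and 1037 at stage 9 and 1106, 973 and 1232 at stage 10. The stage 8 arrays lay above all others, and stages 9 and 10 overlapped. Its increase between stages 7 and 8 was 1.25 ± 0.14 (adjusted p = 2.7e-08 by limma), the smallest among the called members.

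AT3G58550, described after its values were seen because of the same peak, read 15.2, 17.2 and 17 at stage 6, 463, 466 and 505 at stage 7, 1759, 1935 and 1792 at stage 8, 919, 955 and 911 at stage 9 and 1130.1, 1093 and 1056 at stage 10. Its stage 8 mean was 181% of its late level, and that of AT2G18370 170%. It rose by 1.92 ± 0.11 from stage 7 to 8 (adjusted p = 6.7e-14 by limma). AT5G56100, a glycine-rich protein related to the oleosins that coat oil bodies, was at 94.5 ± 2.12 at stage 6 and 69 ± 2.09 at stage 7 (SD, n = 3). It then rose to 945 ± 21.1 at stage 8 and stood at 1513 ± 187 at stage 10.

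AT3G04170, of the germin-like branch of the cupin superfamily, was the exception to the common course. Its arrays read 85.8, 80.1 and 96.6 at stage 6, 1545, 1484 and 1372 at stage 7, 935, 815 and 765 at stage 8, 925, 1021 and 909.99 at stage 9 and 1154, 1027 and 1169 at stage 10. It was highest at stage 7, and the stage 8 arrays all lay below those of stage 7. The difference between stages 8 and 7 was -0.81 ± 0.17 (SE) with adjusted p = 0.00019 by limma, which fell short of a 2-fold change and so was not called. With no fold minimum it was called lower. Its signals in the siliques were 1.4 to 8.9, so its first climb lay between siliques stage 5 and seeds stage 7.

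AGL67 codes for a MADS domain transcription factor that is known from work on desiccation tolerance and germination in this species. It read 75.8, 76.4 and 46.2 at stage 6, 227, 232 and 162 at stage 7, 1129, 1050.5 and 925 at stage 8, 934, 1022 and 957 at stage 9 and 1137, 1038 and 1071 at stage 10. It had reached its late level at stage 8, where its mean was 101% of that of stages 9 and 10, after an increase of 2.30 ± 0.16 (adjusted p = 5.9e-12 by limma). Array C was the lowest of its group at stages 6, 7 and 8.

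AT1G76590, of the plant-specific PLATZ family of zinc-binding regulators, read 42.8, 38.1 and 30.3 at stage 6, 144, 141 and 145 at stage 7, 673, 731 and 732 at stage 8, 1051, 1012 and 1062 at stage 9 and 1143, 1115 and 1072 at stage 10. It differed from AGL67 in that stage 8 stood at 66.2% of the late level, and all stages were apart. Its increase from stage 7 was 2.26 ± 0.10. AT1G30860, a RING domain protein of the kind that marks other proteins for breakdown, rose by 2.12 ± 0.14 to 710.3 ± 8.76 at stage 8 and stood at 1065 ± 32.1 at stage 9.

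AT1G08170 codes for a histone H2B variant that is known from sperm cells and mature seeds. It read 14.5, 14.6 and 1.28 at stage 6, 21.1, 24.8 and 22.1 at stage 7, 638, 538 and 549.7 at stage 8, 1024, 1006 and 909.95 at stage 9 and 921, 1012 and 1037 at stage 10. It was still among the low signals of the array at stage 7, and its arrays at stages 8 and 9 did not overlap. The increase between stages 7 and 8 was 4.29 ± 0.23 (adjusted p = 4.6e-14 by limma), and it ranged from 3.57 to 4.56 with other offsets and scalings. At stage 8 it had reached 58.4% of its late level, the lowest share among the named members.

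Genes known from stress responses followed. AT3G58450, of the universal stress protein family, read 24.9, 21.2 and 24.3 at stage 6, 205, 205 and 204 at stage 7, 3845, 3437 and 3636 at stage 8, 4334, 4773 and 4563 at stage 9 and 5079.9, 5008 and 5007 at stage 10. It rose by 4.10 ± 0.14 from stage 7 to 8 (adjusted p = 1.0e-17 by limma), and every stage lay above the one before. AT4G25580, a relative of the cold-induced CAP160 protein of spinach, rose by 3.72 ± 0.15 and stood at 823 ± 37.5 (SD, n = 3) at stage 8 and 1025 ± 87.9 at stage 10. AT1G16850, a gene of unknown function that is induced by abscisic acid and water loss, rose by 2.77 ± 0.15. It was the only named member whose stage 10 arrays, at 1900.3, 1838 and 1498, all lay below those of stage 9, at 1997, 1999.6 and 2052.

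TET4, a tetraspanin, which is a protein with 4 membrane spans, rose by 2.46 ± 0.10 to 758 ± 78.9 at stage 8. AT5G50170, with a calcium and lipid binding C2 domain, rose by 2.83 ± 0.12 to 761 ± 84.4, from 101 ± 3.49 at stage 7. The glycine-rich protein gene AT2G05580 rose by 2.37 ± 0.13, and its stage 10 arrays, at 1304, 1308 and 1401, lay above those of stage 9, at 795, 964 and 803. AT2G05580 and AT1G70985 had the largest steps between stages 9 and 10 among the named members, with ratios of the means of 1.57 and 1.59.

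AT1G70985, for which no function is given here, had one of the 4 smallest changes between stages 7 and 8. It read 83.7, 84.7 and 109 at stage 6, 329.97, 311 and 307 at stage 7, 1177, 1060.0 and 1121 at stage 8, 966, 917 and 941 at stage 9 and 1501, 1459.9 and 1535 at stage 10. The stage 9 arrays lay below those on both sides. Its increase from stage 7 to 8 was 1.80 ± 0.12 (adjusted p = 3.8e-12 by limma), and in siliques stage 3 it had read 79 to 104.

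For the other named members no function is given here. AT1G02700 read 99.7, 101 and 99.8 at stage 6, 437, 431 and 426 at stage 7, 3542, 3249.7 and 3168 at stage 8, 3932, 4361 and 3878 at stage 9 and 4503, 4349 and 4748 at stage 10. Its stage 6 mean of 99.98 is the closest to the threshold of 100, and array B alone lay above it. It rose by 2.92 ± 0.07 between stages 7 and 8 (adjusted p = 6.5e-21 by limma). In siliques stage 3 it read 6.7 to 8.8 and in stage 4 85.5 to 97, so its signal also differed between these siliques. Siliques are whole fruits and seeds are not, and growth conditions are labelled for siliques stage 3 alone. The source of this earlier difference was not tested.

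AT4G27530 read 17, 10.2 and 15.5 at stage 6, 101, 98.3 and 105 at stage 7, 3054, 2771 and 2883 at stage 8, 3580.03, 4099 and 3915 at stage 9 and 3074, 3498 and 3778 at stage 10. Its increase from stage 7 to 8 was 4.75 ± 0.17 (adjusted p = 9.6e-18 by limma), the second largest of the named members. The remaining 5 all rose in this step as well. AT5G42290 rose by 4.17 ± 0.17, AT3G15280 by 3.50 ± 0.10, AT3G19920 by 2.94 ± 0.09, AT5G55750 by 2.70 ± 0.15 and AT1G22600 by 2.46 ± 0.11.

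**Figure D4:**
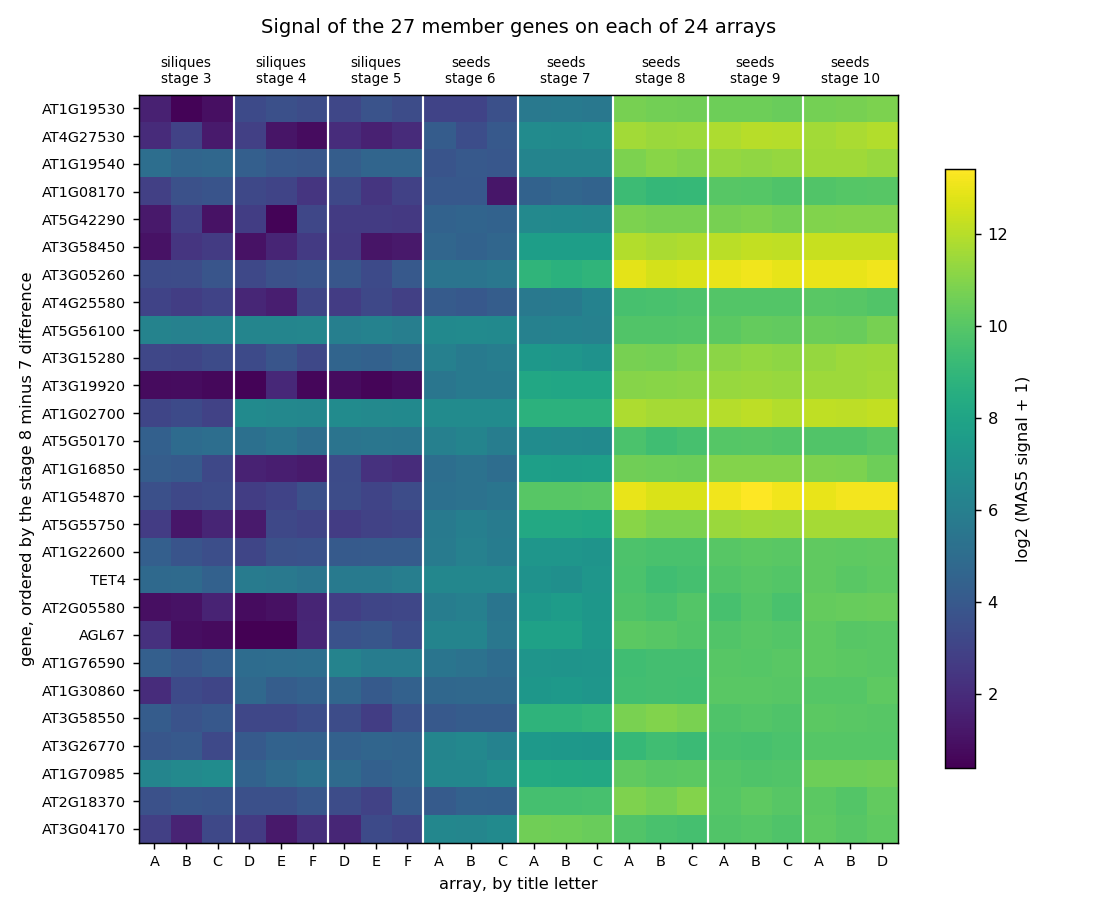
log2 of the MAS5 signal plus 1 for the 27 member genes (rows, ordered by the difference between stages 8 and 7) on each of the 24 arrays (columns, by group and title letter). Within seeds stages 6 to 10, the largest change of colour falls between stages 7 and 8 for most rows. For AT3G04170, AT2G18370, AT3G58550, AT1G54870 and AT1G30860 it falls between stages 6 and 7. Some rows change more before seeds stage 6, as AT3G19920 does from 0.67 in siliques stage 5 to 49.6 at seeds stage 6.

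The members differed in when they came up. Between stages 6 and 10, the largest of the 4 steps on the log2 scale lay between stages 7 and 8 for 47 of 54 members and between stages 6 and 7 for 7. Those 7 are AT1G54870, AT3G04170, AT2G18370, AT3G58550, AT1G30860 and 2 probe sets with no gene, 255048_at and 259705_at. The steps are on the signal plus the offset, which understates the step from stage 6 to 7 for signals near the floor. Other offsets were not run for this count. The steps had medians of 1.94 from stage 6 to 7, 3.33 from 7 to 8, 0.39 from 8 to 9 and 0.20 from 9 to 10. All 3 arrays were above 100 for the first time at stage 7 for 33 members and at stage 8 for 21.

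As a share of the mean of stages 9 and 10, the members stood at a median of 6.69% at stage 7, with a range of 1.02% to 142%, and at 72.2% at stage 8, with a range of 37.3% to 181%. At stage 7, 4 members were above 25% of their late level, namely AT3G04170, AT2G18370, AT3G58550 and AT1G70985. At stage 8, 51 were above 50% and 5 above 100%. The 5 are AT3G58550, AT2G18370, AT1G19530, AGL67 and 248544_at, which has no gene. The 27 members with 1 gene had medians of 10.2% and 77.1%, and the other 27 of 4.69% and 67.2%. This difference between named and unnamed members was not tested.

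**Figure D5:**
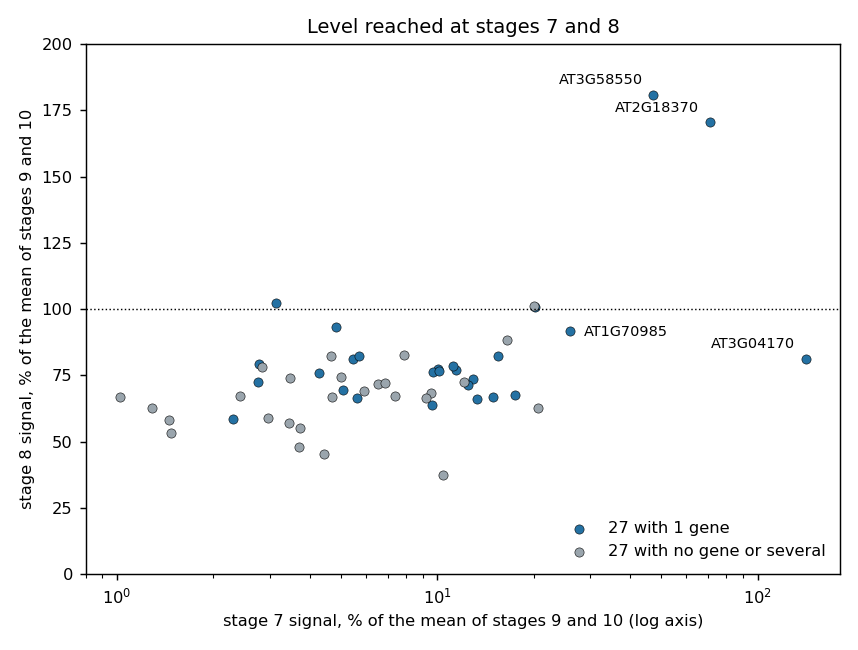
Signal at stage 8 against signal at stage 7 (log axis), each as a percentage of the mean of stages 9 and 10, for the 27 members with 1 gene and the 27 with none or several. Most points lie under 25% at stage 7 and between 50% and 100% at stage 8, and AT3G58550 and AT2G18370 stand apart at 181% and 170% at stage 8.

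At the end of the series, the 3 arrays of stage 10 lay all above those of stage 9 for 33 of 54 members and all below for 2, AT1G16850 and 259705_at, and they overlapped for 19. Over all tested probe sets 15.2% lay above and 12.6% below. The rule used both stages, so nothing is read from these counts. The ratio of the means of stages 10 and 9 had a median of 1.15 and ranged from 0.735 to 1.83. The group with the highest mean was seeds stage 10 for 42 members, stage 9 for 9, stage 8 for 2 and stage 7 for 1. Over all tested probe sets these shares were 21.2%, 11.9%, 5.6% and 6.67%.

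The 27 members with no gene or several were described by ID. 247866_at read 89.5 ± 0.463 (SD, n = 3) at stage 6, 619 ± 24.8 at stage 7, 6795 ± 410.2 at stage 8 and 9631 ± 780 at stage 10. 263385_at had the largest change between stages 7 and 8, at 5.91 ± 0.09 (SE), from 72.3 ± 6.45 to 4743 ± 300 (SD, n = 3). All 27 rose in this step, by 1.58 to 5.91. At stage 8, 254915_s_at was furthest from its late level, at 37.3%.

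The 7 late embryogenesis abundant probe sets set aside by the rule, M10, LEA18, AT2G42560, AT3G53040, AT2G23110, AT1G72100 and AT3G22490, stood at a median of 2.51% of their late level at stage 7 and 77.2% at stage 8. For the members these medians were 6.69% and 72.2%. The ranges of both sets overlapped at both stages, and the difference was not tested. AT1G22600 has no such name in the tables used here and stayed a member, though it may belong to a late embryogenesis abundant family, and without it 52 of 53 members rose between stages 7 and 8.

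Genes known for protection in dry seeds were followed with 4 lists, of which 2 could be read. No member with a gene in the annotation is in any of them. The 26 members with no gene could not be matched to the lists, so genes of these lists may be among them. Heat shock proteins keep other proteins from clumping, and some are made in maturing seeds without heat. Of 20 listed, 7 could be read by a probe set specific to them, and 6 of those passed the filter. In the step from stage 7 to 8, 1 rose, 1 fell and 4 were not called, with a median difference of 0.39 against -0.02 over all tested probe sets. The peroxisomal small heat shock protein gene AT5G37670 rose from 37.6 ± 6.35 (SD, n = 3) to 167 ± 12.5. ATHSP22.0, for a small heat shock protein of the endoplasmic reticulum, fell from 56.7 ± 3.95 to 21.3 ± 4.33, a call that ended, at -0.79, with an offset 4 times larger.

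Between seeds stages 6 and 10, where 14.1% of tested probe sets rose and 19.7% fell, 4 of the 6 heat shock genes rose and 2 were not called, with a median of 2.74 against 0.02. The class III gene AT1G54050 rose by 3.83 ± 0.10 (SE), AT5G37670 by 3.77 ± 0.15, AT1G53540 by 3.22 ± 0.20 and AT2G29500 by 2.25 ± 0.14. AT1G54050 reached 744 ± 53.4 (SD, n = 3) at stage 10, while the other 3 stood at 114 to 261. The means of AT1G53540 and AT2G29500 went up at each stage. AT1G54050 instead went from 414 ± 21 at stage 8 to 230 ± 25.6 at stage 9, and AT5G37670 from 167 ± 12.5 to 119 ± 3.94, before their stage 10 levels. Of 16 antioxidant and redox genes 2 were tested, and neither was called between stages 7 and 8, where limma gave 1 higher and 1 lower at an unadjusted p under 0.05. MSRB6, which repairs oxidized methionine, rose by 1.25 ± 0.13 (SE) between stages 6 and 10. GR1, for glutathione reductase, was lower, with a difference of -0.52 ± 0.08 (adjusted p = 5.2e-06 by limma). It fell short of a 2-fold change and so was not called. Other readings moved between stages 6 and 10 too. The 3'/5' ratio of the first GAPDH control went from 2.18 ± 0.184 (SD, n = 3) to 3.33 ± 0.416. For the ubiquitin control it went from 1.86 ± 0.232 to 2.20 ± 0.122, and for another ubiquitin control from 2.35 ± 0.0607 to 3.41 ± 0.161. The second GAPDH control gave 1.42 ± 0.0882 and 1.51 ± 0.0958, and the ratio for actin went down from 3.01 ± 0.186 to 2.17 ± 0.14. The summed signal of the seed coat genes was 2895 to 2987 and 431 to 526, and that of the photosynthesis genes 8389 to 9447 and 989 to 1034. The part of these readings in the list results was not tested. In the annotation used here, no gene of the lists for raffinose sugars, with 8, and for abscisic acid signalling and dormancy, with 24, had its own probe set. That annotation gives no gene for 8794 of 22810 probe sets, so the array may still carry probes for these genes.

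The thresholds cut through a continuous range. Just inside the limit of 100 lay AT1G02700 and AT5G56100, with highest early means of 99.98 and 94.5, and just outside it 255521_at and AT3G57020, both with 103. Just inside the limit of 800 lay AT3G26770 and 262310_at, with lowest late means of 812 and 827, and just outside it FACT and AT1G31750, with 797 and 774. The 27 member genes lie on all 5 chromosomes, 11 of them on chromosome 1, a count given with no share over all genes beside it. Their median gene length in the RefSeq table (assembly TAIR10.1) is 1285 bases, against 2105 over 13286 genes with a probe set of their own.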

How the data were processed

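Total RNA of 24 samples in 8 groups was hybridised to 1-colour Affymetrix ATH1 arrays, and groups follow the tissue labels. The deposited values are intensity signals on a linear scale, made by the authors with MAS5, per the submitters' processing notes, which name no version. The trimmed means of the arrays, computed here, were 100.008 to 100.01. Each signal plus an offset of 6.97, the median 20th percentile of the arrays, was taken to log2. Probe sets above the 40th percentile on at least 3 arrays were tested, 16967 in all, with limma 3.58.1 in R 4.3.3, with 1 mean per group, 16 residual degrees of freedom and Benjamini-Hochberg adjustment. The fit was tested on simulated data. Fold changes are on the log2(signal + offset) scale, which understates changes of low signals.

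The members and lists were chosen with earlier results of these data known. All members with 1 gene are named. Every array is given for the 4 largest and 4 smallest differences between stages 8 and 7, for the 4 highest signals at stage 10, and, chosen after values were seen, for AT3G58550, AGL67 and AT1G76590. Genes come from the platform annotation, updated through RefSeq. List genes were read where a probe set had that gene alone. Promoter and protein sequences were not analysed here. Alternatives were other offsets, normalizations, centrings, filters, thresholds, array subsets and a block for the title letter.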

Additional observations from a re-analysis of the deposited data

How the results depend on the processing

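The count of 53 members that rose from stage 7 to 8 was the same under every offset, scaling, filter, call rule and array subset run. Their median difference of 3.33 was 3.39 with the offset divided by 4, 3.07 with 4 times the offset, 3.18 after quantile normalization, 3.49 with arrays centred on reference genes, 3.39 with arrays centred on the 75th percentile, and 3.26 to 3.42 when each array of the 2 stages was left out in turn. Without the 6 arrays of high 25S control, an alternative chosen after seeing the data, it was 3.36, but this leaves 1 array at stage 8 and 1 at stage 10, each assumed to vary like the other groups, so it says little about stability. With no fold minimum 1 member, AT3G04170, was called lower.

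Of the 4 gene lists together, between stages 7 and 8, 0 genes were called lower with 4 times the offset in place of 1, and with no fold minimum 4 were higher and 2 lower. Between stages 6 and 10, 1 was lower with no fold minimum, where limma with the fold minimum called 0 and 1 was lower at an unadjusted p under 0.05. Over all probe sets between stages 7 and 8, 1908 were lower by the reported rule, 1117 with 4 times the offset, and with no fold minimum 4482 were higher and 5357 lower. Between stages 6 and 10, 2389 were higher and 3346 lower, and with no fold minimum 5942 and 6192.

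The membership follows its thresholds. With at most 50 and at least 1600, 19 probe sets met the rule, and with at most 200 and at least 400, 258 did. The other alternatives gave 49 to 58, and leaving out 1 array gave 53 to 56.

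The title letters were not used as pairs, and the labels do not say whether same-letter samples share plants or a batch. Deviations of same-letter samples correlated at 0.0116 to 0.0277 for stages 7 and 8 and 0.0075 to 0.0144 for stages 6 and 10. Those of samples with different letters correlated at -0.032 to 0.0086 and at -0.0123 to 0.0135. Values this small do not tell whether the samples are paired. With the letter as a replicate block, 53 members rose and 0 fell, with a median of 3.33, and 5 list genes rose between stages 6 and 10. The alternative for promoter motifs was not run. With 3 arrays a group and no detection calls, signals near the floor have no reliable order.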
